A study of Mus musculus with 14 samples.

Results

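The metallothioneins Mt1 and Mt2 and the zinc transporters Slc30a1, Slc39a10 and Slc39a14 were followed across bone marrow populations exposed to PBS or IL-1β, 5 genes of 55487 in the count tables. They were selected on their levels with IL-1β and PBS in these libraries, which were already known, so their differences between groups are given as a description. Whether a member was called in the fit across all genes is stated beside them and supports nothing about these genes. LSK cells (Lin-Sca1+c-kit+) and LK cells, which are Lin-c-kit+ and labelled MP(LK), came from C57BL/6 mice that had been lethally irradiated and given marrow of pI-pC induced donors carrying 1 mutant allele of Jak2, Jak2VF/+ (a heterozygous Jak2V617F knock-in). In the donors the allele was switched on by Mx1Cre, whose promoter responds to interferon, and the PBS mice carried it as well as the IL-1β mice, so no wild-type blood cells were compared. Starting 4 weeks after transplantation the mice received PBS or 0.5 μg IL-1β per dose by intraperitoneal injection, 3 doses a week for 16 weeks. An age of 6 to 8 weeks is recorded for the mice, without the step it refers to. The cultures labelled MSC were grown from wild-type C57BL/6 marrow for 21 days and exposed to PBS or 5 ng/ml IL-1β for 72 h. There were 3 PBS and 2 IL-1β libraries of LSK cells, the same numbers of LK cells, and 2 of each treatment for MSC. The labels do not say whether libraries of a group were separate animals or cultures, and p-values measure the spread between these libraries only.

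Metallothioneins are small, cysteine-rich proteins that bind zinc and copper, and their genes are switched on when the metal-sensing transcription factor MTF1 binds metal response elements in their promoters. Zinc leaves the cytoplasm through ZnT (Slc30a) transporters and enters it through ZIP (Slc39a) transporters. ZnT1 (Slc30a1), the exporter of the plasma membrane, is itself an MTF1 target, whereas the importer ZIP10 (Slc39a10) is known to be held down by MTF1. ZIP14 (Slc39a14) imports zinc, iron and manganese and is known from the liver as an acute-phase gene that rises with IL-6 and IL-1. Zinc transporters are known to be switched as erythroid cells mature, and metallothioneins also rise with glucocorticoids and cytokines.

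Mt1 (ENSMUSG00000031765) and Mt2 (ENSMUSG00000031762) lie side by side on the forward strand of chromosome 8, at chr8:94179082-94180327 and chr8:94172664-94173568 (GRCm38). Slc30a1 (ENSMUSG00000037434) lies at chr1:191906767-191913247, Slc39a10 (ENSMUSG00000025986) at chr1:46807544-46892852 on the reverse strand, and Slc39a14 (ENSMUSG00000022094) at chr14:70303469-70351425 on the reverse strand. The Mt1 and Mt2 coding sequences, from the GENCODE vM21 annotation of the same build, both have 186 bases and 61 codons before the stop, of which 20 in each encode cysteine. They were identical at 148 bases (79.6%), but the longest run shared by their spliced transcripts was 20 bases, so nearly all read pairs could be told apart. The promoter windows below are shown because Mt1, Mt2 and Slc30a1 are the members known to be regulated through metal response elements. They run from 250 bases before to 50 bases after the RefSeq start site (GRCm38.p6), 5′ to 3′ on the gene's strand, and capitals mark matches to the core of the element, searched as TGCACNC or TGCGCNC on both strands.
Mt1, chr8:94178839-94179138: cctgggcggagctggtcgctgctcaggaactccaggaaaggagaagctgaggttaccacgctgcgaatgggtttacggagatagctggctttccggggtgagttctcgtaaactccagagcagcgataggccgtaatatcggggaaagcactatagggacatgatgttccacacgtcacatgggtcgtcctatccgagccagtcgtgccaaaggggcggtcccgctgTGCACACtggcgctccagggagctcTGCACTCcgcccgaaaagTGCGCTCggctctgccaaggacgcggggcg
Mt2, chr8:94172368-94172667: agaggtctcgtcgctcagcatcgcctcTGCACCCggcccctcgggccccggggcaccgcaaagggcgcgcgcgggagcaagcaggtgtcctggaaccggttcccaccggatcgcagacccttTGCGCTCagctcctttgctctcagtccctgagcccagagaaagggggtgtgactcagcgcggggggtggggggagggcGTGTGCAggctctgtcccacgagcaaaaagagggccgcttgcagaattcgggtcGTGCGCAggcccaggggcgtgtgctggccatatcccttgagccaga
Slc30a1, chr1:191906531-191906830: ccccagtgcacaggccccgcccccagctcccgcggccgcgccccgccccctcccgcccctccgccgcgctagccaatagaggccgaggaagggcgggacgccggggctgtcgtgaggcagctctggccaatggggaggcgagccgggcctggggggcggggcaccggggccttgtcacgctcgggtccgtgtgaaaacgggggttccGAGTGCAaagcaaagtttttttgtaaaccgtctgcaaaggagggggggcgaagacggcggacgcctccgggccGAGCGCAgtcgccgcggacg

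The Mt1 window held 3 matches, the Mt2 window 4 and the Slc30a1 window 2. Of 32851 mouse promoter windows of the same length, 25.7% held at least 1 match, 7.11% at least 2, 1.97% at least 3 and 0.517% at least 4. No match was found in either of the Slc39a10 windows. In Mt1 the matches began at bases -23, 3 and 21 from the RefSeq start, which lies at base 94179089, 7 bases past the gene start in the count tables. In Mt2 they began at bases -223, -128, -50 and 5, and the RefSeq start at base 94172618 lies 46 bases before the gene start in the tables. The Mt2 and Slc30a1 windows each also held 1 match to the antioxidant response element core, searched as TGACNNNGC on both strands and found in 12.4% of all windows. The STAT core TTCNNNGAA, found in 8.3% of all windows, was absent from the Mt1, Mt2 and Slc30a1 windows and present once in 1 Slc39a10 window. None of these motifs overlapped another. Among the 23 other genes of the zinc lists with a window, 13 held at least 1 metal response element core in any of their windows. This count is per gene and the 25.7% above is per window, so the 2 are not comparable. Only these windows were searched, so matches outside them, or near start sites without a window, were not counted. A match describes the letters only.

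**Figure D1:**
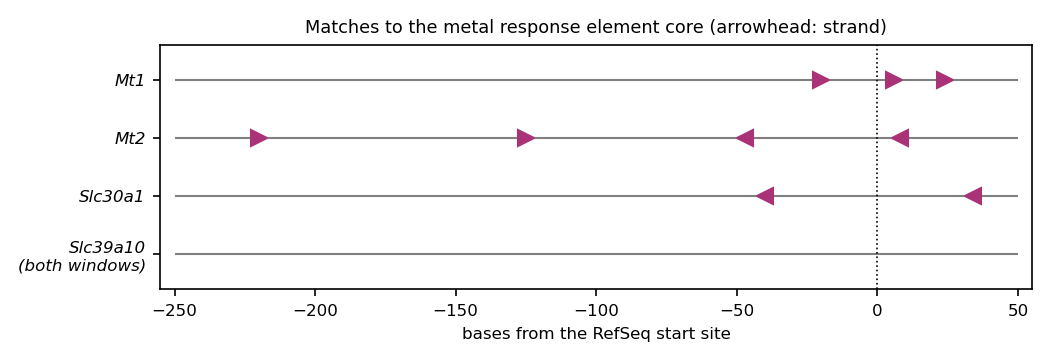
Positions of matches to the metal response element core in the promoter windows of 4 members, in bases from the RefSeq start site (dotted line). Arrowheads point along the strand of each match. Mt2 had 4 matches, Mt1 had 3, Slc30a1 had 2 and Slc39a10 had none in its 2 windows.

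Libraries held 4393233 to 30871055 counted read pairs, and each IL-1β library of LSK or LK cells was shallower than each PBS library, so depth and treatment cannot be told apart there. Under PBS, 8 of 9 stem and progenitor markers were called higher in LSK than in LK cells and 14 of 14 erythroid markers were called lower. Over all genes tested in this contrast, 31.8% were called. The MSC libraries went against their label in part. The summed level of 16 macrophage markers was 21060 and 25040 CPM (read pairs scaled to a common library size) with PBS and 42840 and 44040 CPM with IL-1β, against 2374 and 4213 CPM and 5174 and 5797 CPM for 15 mesenchymal markers. No macrophage marker was at 0 in an MSC library, and 8 of the 16 were called higher with IL-1β, where 11.4% of all genes tested were called. In all of these bulk libraries, fewer cells of a type and less RNA per cell cannot be told apart.

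Mt1 was low in LSK cells under PBS and high in every other group. Its level in the LSK libraries with PBS was 31.3, 31.0 and 27.4 CPM, and with IL-1β it was 166 and 188 CPM. In LK cells it was 230, 194 and 189 CPM with PBS and 277 and 279 CPM with IL-1β. In MSC it was 171 and 188 CPM with PBS and 144 and 160 CPM with IL-1β. The LSK libraries with IL-1β lay far above those with PBS and just below the lowest LK library with PBS. CPM of LSK and LK libraries were scaled together, whereas MSC were scaled apart, so levels set across them are approximate.

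Mt2 followed the same order between LSK and LK cells with a wider gap. Its level in LSK cells was 8.25, 3.64 and 10.0 CPM with PBS and 10.2 and 27.9 CPM with IL-1β, from 47 to 172 read pairs per library. The first of these IL-1β libraries barely cleared the highest PBS library, and the second was alone in standing apart. In LK cells it was 189, 176 and 149 CPM with PBS and 141 and 158 CPM with IL-1β, so the treatments overlapped. In MSC it was 57.4 and 41.9 CPM with PBS and 79.9 and 75.6 CPM with IL-1β, without overlap. The remaining metallothioneins were nearly silent. Mt3 never had more than 4 read pairs in a library and Mt4 had none, which allows up to 3 read pairs per library for counting error alone.

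The exporter Slc30a1 varied least among LSK and LK libraries. It was at 14.5, 6.97 and 10.7 CPM in LSK cells with PBS and at 10.1 and 16.2 CPM with IL-1β. In LK cells it was at 16.7, 14.2 and 13.2 CPM with PBS and at 15.9 CPM in both IL-1β libraries. Neighbouring groups in this order overlapped, while the MSC libraries stood well above them, at 59.1 and 49.3 CPM with PBS and 49.4 and 49.9 CPM with IL-1β.

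The importer Slc39a10 was highest in LSK cells under PBS. Its level there was 65.7, 53.4 and 57.0 CPM, against 35.9 and 19.1 CPM in LSK cells with IL-1β. In LK cells it was 38.8, 35.3 and 38.3 CPM with PBS and 30.5 and 37.8 CPM with IL-1β, and in MSC it was 27.5 and 23.5 CPM with PBS and 24.0 and 21.8 CPM with IL-1β. The LSK libraries with IL-1β therefore fell within or below the range of LK cells, and the lower of them was also the shallowest library of all.

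Slc39a14 had its highest levels in MSC with IL-1β. It was at 53.3 and 51.8 CPM there and at 25.6 and 21.1 CPM in MSC with PBS. In LSK cells it was at 30.4, 50.2 and 25.3 CPM with PBS and at 27.3 and 15.7 CPM with IL-1β, which overlapped. In LK cells it was at 9.97, 10.3 and 9.90 CPM with PBS and at 11.7 and 8.20 CPM with IL-1β, which also overlapped. LK cells thus had the lowest level of this importer and MSC with IL-1β the highest.

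**Figure D2:**
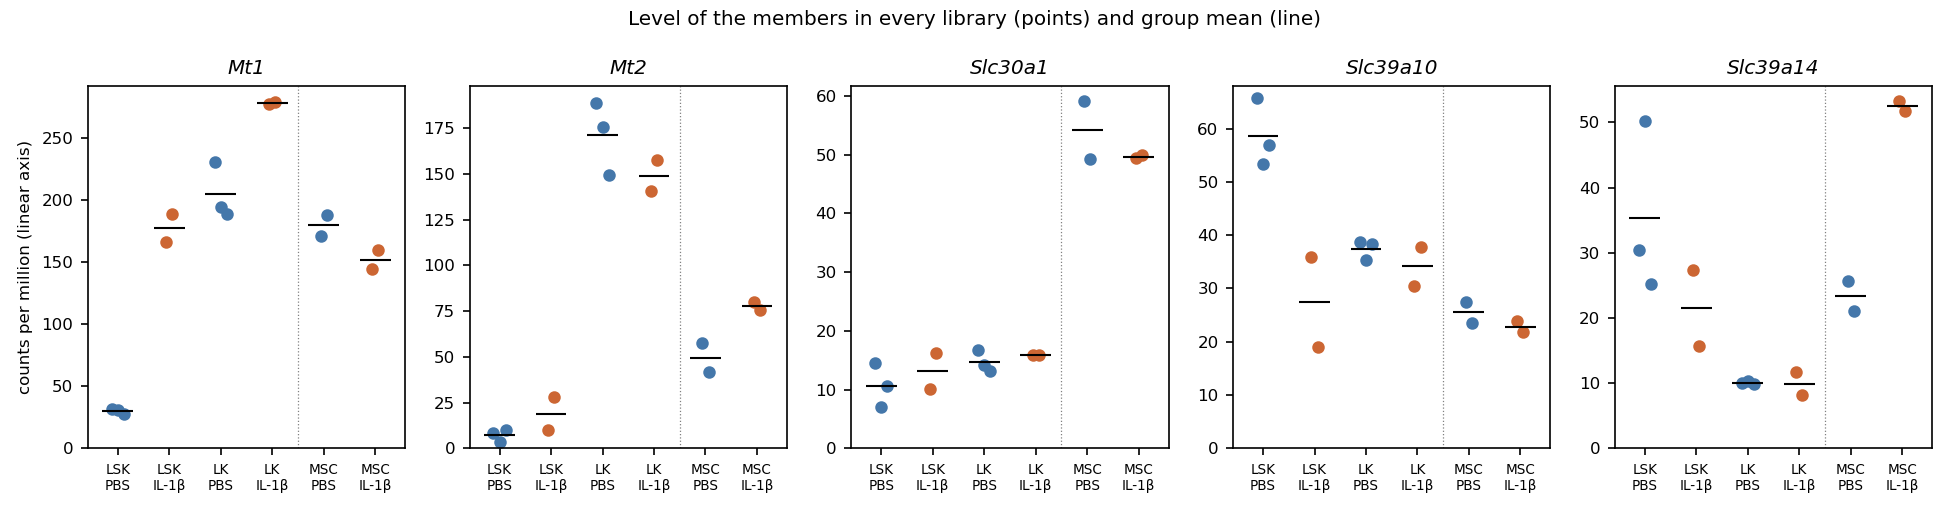
Level of each member in CPM (linear axis from 0) in every library of the 6 groups, with PBS in blue, IL-1β in orange and a line at the group mean. LSK and LK libraries were scaled together and MSC libraries, right of the dotted line, apart. Mt1 and Mt2 were lowest in LSK cells with PBS, and Slc39a14 was highest in MSC with IL-1β, at 53.3 and 51.8 CPM.

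Per kilobase of gene length as the count tables give it, the mean levels of both metallothioneins exceeded those of the 3 transporters in every group. In LK cells with PBS, Mt2 had a mean level of 291 ± 34.1 CPM per kb (SD, n = 3) and Mt1 164 ± 18.0 CPM per kb (SD, n = 3). The transporters in the same libraries had mean levels of 6.15 ± 0.310 (Slc39a10), 2.80 ± 0.342 (Slc30a1) and 0.953 ± 0.0203 CPM per kb (Slc39a14; SD, n = 3 each). In LSK cells with PBS, Mt1 had 24.0 ± 1.76 and Mt2 12.4 ± 5.59 CPM per kb (SD, n = 3), closer to Slc39a10 at 9.63 ± 1.03 CPM per kb (SD, n = 3). The order of Mt1 and Mt2 on this scale depends on the lengths used, since the tables give 1246 bases for Mt1, its whole locus, and 588 for Mt2, and by read pairs Mt1 exceeded Mt2 in every library.

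The balance between Mt1 and Mt2 differed between LSK and LK cells, whereas MSC overlapped LSK cells under PBS and LK cells under IL-1β. Of the read pairs on both genes, Mt1 took 79.2%, 89.5% and 73.3% in LSK cells with PBS and 94.2% and 87.1% with IL-1β. The widest 95% Wilson interval among these ran from 75.5% to 82.4%, for PBS replicate 1, and covers counting error only. In LK cells with PBS, Mt1 took 54.9%, 52.5% and 55.8%, and with IL-1β it took 66.3% and 63.9%. In MSC the shares were 74.8% and 81.8% under PBS, and 64.3% and 67.9% under IL-1β. The share of Mt1 was thus higher with IL-1β than with PBS in all LK libraries and lower in all MSC libraries, and in LSK cells the treatments overlapped.

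**Figure D3:**
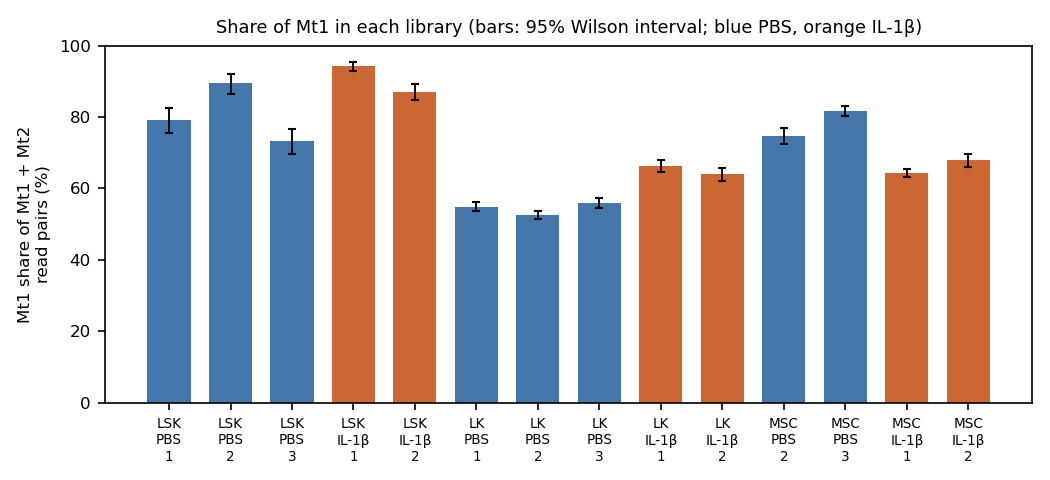
Share of Mt1 among the read pairs counted on Mt1 and Mt2 in every library, in percent, with bars from 0 and 95% Wilson intervals that cover counting error only. Shares lay between 52.5% and 66.3% in LK cells and between 73.3% and 94.2% in LSK cells.

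The contrast of LSK with LK cells under PBS asks how zinc handling differs between the stem cell fraction and committed progenitors without the cytokine. Whether this contrast was among the values that chose the genes is not known, and it uses the same PBS libraries, so the members' values are a description here too. Under PBS, Mt2 was 23.3-fold and Mt1 6.83-fold lower in LSK than in LK cells. Slc39a14 was 3.5-fold and Slc39a10 1.57-fold higher in LSK cells. The log2 differences (LSK minus LK) were -4.54 for Mt2 (SE 0.40), -2.77 for Mt1 (SE 0.16), 1.81 for Slc39a14 (SE 0.30) and 0.65 for Slc39a10 (SE 0.22). Slc30a1 lay at -0.46 (SE 0.30), and at -0.81 without LSK PBS replicate 1 and -0.23 without LSK PBS replicate 2. Called genes, here and below, had an adjusted p below 0.05 in edgeR's quasi-likelihood test together with a log2 difference beyond 0.5 in size, and 4 of the 5 members were called where 31.8% of the 13839 genes tested were. The groups did not overlap for those 4. The calls of Mt1, Mt2 and Slc39a14 held under all 16 alternatives tried, whereas that of Slc39a10 was lost in 9 of them, with a log2 difference of 0.48 without LSK PBS replicate 1.

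Erythroid markers moved with the metallothioneins in this contrast. The summed level of 14 of them was 477 to 655 CPM in LSK and 4048 to 5206 CPM in LK cells with PBS, none was at 0 in these libraries, and their median log2 difference was -3.29 against 0.09 over all genes tested. Under IL-1β the sum was 538 and 783 CPM in LSK and 2782 and 3049 CPM in LK cells. Neutrophil granule markers also summed lower under PBS, at 2180 to 3168 CPM in LSK and 4437 to 9600 CPM in LK cells. Of 13 tested in this contrast, 5 were called lower and 0 higher, 3 had a positive difference, and the median was -1.18. Megakaryocyte markers went the other way, with 5 of 8 tested called higher and a median of 1.85. Over all genes tested, 31.8% were called. The part of these lists in the levels of Mt1 and Mt2 under PBS was not tested.

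Other zinc genes of fixed lists (10 ZnT genes, 14 ZIP genes, 4 metallothioneins and 4 genes of zinc sensing and delivery) were read in the same contrast. Of the 21 that were no members and could be tested, 5 were called higher and 2 lower in LSK cells, a share close to the 31.8% of all genes and so not a result about zinc genes, with a median log2 difference of -0.21 against 0.09 over all genes. The exporters called higher were Slc30a4 (ZnT4; log2 difference 2.69, SE 0.53) and Slc30a7 (ZnT7, of the Golgi; 0.71, SE 0.18). The importers called higher were Slc39a1 (0.84, SE 0.17), Slc39a6 (0.88, SE 0.17) and Slc39a11 (1.03, SE 0.20). Slc39a8 (ZIP8), the nearest relative of ZIP14, was called lower by 1.72 on the log2 scale (log2 difference -1.72, SE 0.19, adjusted p 7.67e-05). Its level was 18.5, 16.8 and 19.95 CPM in LSK cells with PBS and 64.9, 66.7 and 50.4 CPM in LK cells with PBS, the reverse of Slc39a14. Mtf1, the metal sensor, was called lower too (log2 difference -0.57, SE 0.18, adjusted p 0.0274), at 33.3, 43.4 and 30.4 CPM in LSK and 52.0, 56.2 and 50.7 CPM in LK cells.

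With IL-1β in vivo, Mt1 was 6.08-fold higher in LSK cells (log2 difference 2.60, SE 0.23). Mt2 was 2.64-fold higher there (1.40, SE 0.55), Slc39a10 2.05-fold lower (log2 difference -1.04, SE 0.32), Slc39a14 lay at -0.66 (SE 0.40) and Slc30a1 at 0.33 (SE 0.45). Of the 5 members 1, Mt1, was called, where 0.632% of the 13132 genes tested were, and nothing is read from this count because the contrast was known when the members were named. The treatments did not overlap for Mt1, Mt2 and Slc39a10, as for 39.5% of all genes. Without IL-1β replicate 2, the shallowest library, Mt1 had nearly the same log2 difference, 2.55, but was not called. Without that library the log2 difference of Mt2 was 0.55, that of Slc39a10 -0.64 and that of Slc39a14 -0.30, and Slc30a1 lay at -0.02. Without IL-1β replicate 1, Mt2 lay at 1.96, Slc39a10 at -1.60, Slc39a14 at -1.15 and Slc30a1 at 0.62. Slc39a10 was called with no filter on low counts and when LSK and LK libraries were fitted together. Neutrophil granule markers rose beside these values, from 2180 to 3168 CPM in sum for 14 genes with PBS to 9761 and 11610 CPM with IL-1β, and 4 of the 11 tested were called higher, with Lcn2 the largest (log2 difference 6.71, SE 0.44). Their part in the metallothionein levels was not tested.

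In LK cells the members moved little with IL-1β. Mt1 had a log2 difference of 0.45 (SE 0.11), under the size a call needs, and 0 of the 5 were called by edgeR or by DESeq2, where 9.34% of the 12835 genes tested were called. In edgeR 1 member had an unadjusted p under 0.05. Mt2 lay at -0.20 (SE 0.12), Slc39a10 at -0.13 (SE 0.15), Slc30a1 at 0.12 (SE 0.19) and Slc39a14 at -0.01 (SE 0.24). Only Mt1 had treatments that did not overlap, as 45.8% of all genes did. Neutrophil granule markers were again higher, from 4437 to 9600 CPM in sum with PBS to 18280 and 21410 CPM with IL-1β.

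The response of Mt1 to IL-1β was larger in LSK than in LK cells by 2.12 on the log2 scale (SE 0.23) in the interaction fit of all 10 libraries. Mt1 was 1 of 4 genes called in that fit among 13839 (0.0289%), and 24 were called with same-numbered LSK and LK libraries as a block. The block left Mt1 called. The call was lost without LSK IL-1β replicate 2 (2.04), LK PBS replicate 2 (2.16), LK IL-1β replicate 1 (2.16) or LK IL-1β replicate 2 (2.16), although the difference itself barely moved. For Mt2 the difference between the responses was 1.52 (SE 0.57), for Slc39a10 -0.94 (SE 0.36), for Slc39a14 -0.69 (SE 0.48) and for Slc30a1 0.16 (SE 0.49), and none of these was called. Without LSK IL-1β replicate 2 they were 0.67 for Mt2, -0.57 for Slc39a10 and -0.35 for Slc39a14, and without LSK IL-1β replicate 1 Slc39a10 lay at -1.45 and Slc39a14 at -1.12. All 5 values rest on the IL-1β contrasts that were known when the genes were named.

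In the MSC libraries, Slc39a14 was 2.27-fold higher with IL-1β (log2 difference 1.18, SE 0.13). It was called, as were 11.4% of the 13239 genes tested, and nothing is read from this because the contrast was known when the genes were named. Leaving out IL-1β replicate 1 or 2 moved its log2 difference to 1.16 or 1.19 but ended the call, with 1 IL-1β library left whose spread was taken from the PBS pair. Mt2 was 1.58-fold higher (0.66, SE 0.17) and Mt1 1.18-fold lower (log2 difference -0.24, SE 0.11), and neither was called, though the treatments did not overlap for either, nor for 61.2% of all genes. Mt2 was called by DESeq2's Wald test (0.65), with no filter on low counts (0.70) and without PBS replicate 2 (0.91). Slc39a10 lay at -0.15 (SE 0.14) and Slc30a1 at -0.12 (SE 0.12). The macrophage markers given above rose with IL-1β in the same libraries, and their part in the level of Slc39a14 was not tested.

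**Figure D4:**
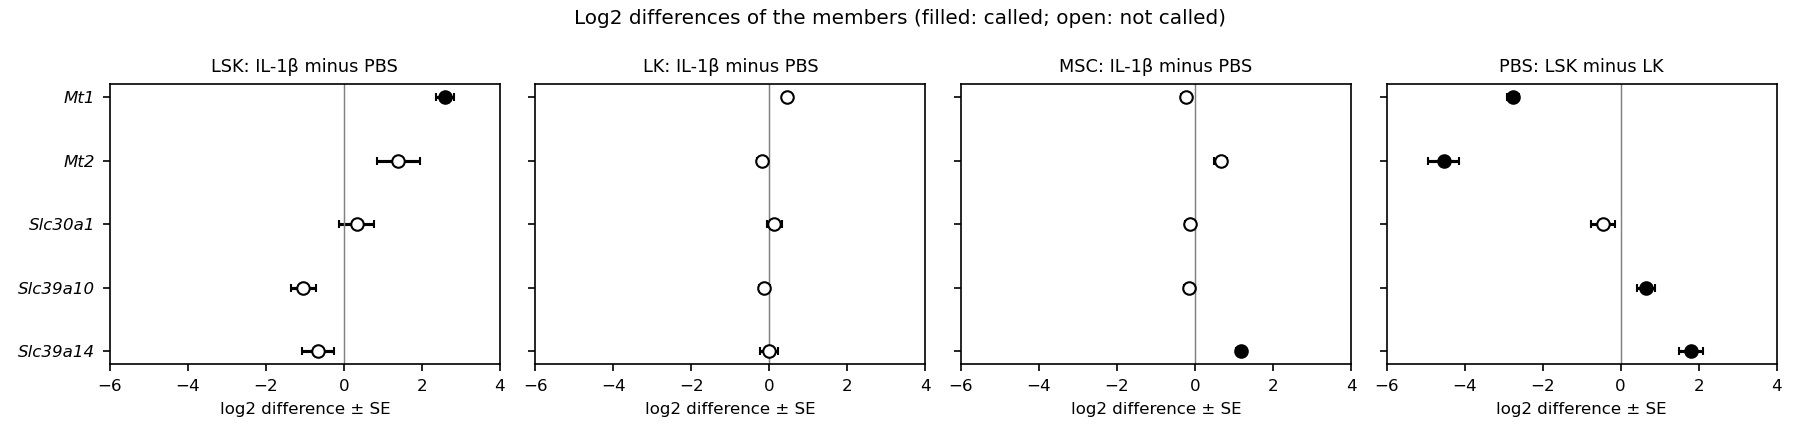
Log2 differences of the 5 members with their standard errors for IL-1β minus PBS in LSK, LK and MSC libraries and for LSK minus LK cells with PBS. Filled points were called and open points were not. Mt1 and Mt2 lay at -2.77 and -4.54 in the last contrast, and Mt1 at 2.60 in LSK cells with IL-1β.

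Genes of the zinc lists outside the group of 5 were read with IL-1β in each population. In the interaction of LSK with LK cells edgeR called 0 of them, 5 had an unadjusted p under 0.05 and DESeq2 called 1, and MSC were not tested against the other populations. Over all 12835 genes tested in LK cells, 9.34% were called, 869 higher and 330 lower. The list genes outside the members had a median log2 difference of 0.30 there, against -0.03 over all genes tested. Of 20 such genes tested, 5 were called higher and none lower. They were the exporters Slc30a2 (2.75, SE 0.67), Slc30a4 (1.81, SE 0.35) and Slc30a7 (0.65, SE 0.16) and the importers Slc39a1 (0.57, SE 0.12) and Slc39a11 (0.70, SE 0.18). Slc30a2, which loads zinc into vesicles, rested on 9, 8 and 5 read pairs with PBS and 38 and 10 with IL-1β. Slc30a4 was at 2.31, 2.11 and 3.44 CPM with PBS and 10.8 and 7.55 CPM with IL-1β. The LSK libraries were spread widely, at 22.25, 6.35 and 22.2 CPM with PBS and 19.4 and 6.12 CPM with IL-1β. Both LK libraries with IL-1β fell within that range. These calls changed with the fit. Counted with the members, the lists had 0 genes called in LK cells in a joint fit with the LSK libraries. Leaving out LK PBS replicate 2 also left 0. Leaving out LK PBS replicate 1 left 1, which was the member Mt1, so none of the calls named here held there. DESeq2, its size factors in edgeR, no filter and a filter of 10 reads in 2 libraries each gave 5. Upper-quartile factors gave 4, and the replicate block gave 7, as did leaving out LK PBS replicate 3. Calls without an LK IL-1β replicate are not counted, since 1 library is left in that group.

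In LSK cells 0 of 19 such genes were called with IL-1β by edgeR, 2 had an unadjusted p under 0.05 (Slc30a2 and Slc30a7), DESeq2 called 1, and the median log2 difference was 0.19 against -0.06 over all genes. Slc30a7 stood at 54.9, 52.0 and 48.4 CPM with PBS and 34.8 and 29.6 CPM with IL-1β in LSK cells, whereas in LK cells it stood at 28.2, 35.4 and 31.3 CPM with PBS and 54.96 and 44.2 CPM with IL-1β. The treatments did not overlap in either population and the order was opposite, but the difference between the responses, -1.33 (SE 0.28), had an adjusted p of 0.129 in edgeR's interaction fit and was not called.

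In MSC 0 of 19 were called by edgeR and 0 by DESeq2, 7 had an unadjusted p under 0.05 in edgeR, and there was a median log2 difference of 0.24 against 0.00 over all genes. Slc39a4 (ZIP4), an importer known from the gut, had 10 and 0 read pairs with PBS and 361 and 126 with IL-1β (log2 difference 4.30, SE 1.03, adjusted p 0.0641 by edgeR). Slc39a6 passed the p threshold but not the size (log2 difference -0.44, SE 0.10, adjusted p 0.0391). Over all genes tested in MSC, 11.4% were called. Of the 8 genes of copper handling, the other metal that metallothioneins bind, 7 could be tested and 3 were called higher. They were the importer Slc31a1 (1.31, SE 0.17), its relative Slc31a2 (1.54, SE 0.13) and the copper pump Atp7a (1.73, SE 0.19). In LSK cells 0 of 8 copper genes were called with IL-1β by edgeR or DESeq2 and 0 had an unadjusted p under 0.05. In LK cells edgeR called 0, 1 had an unadjusted p under 0.05 and DESeq2 called 1. In LSK against LK cells under PBS 1 was called higher and 2 lower, where 31.8% of all genes tested were called.

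**Figure D5:**
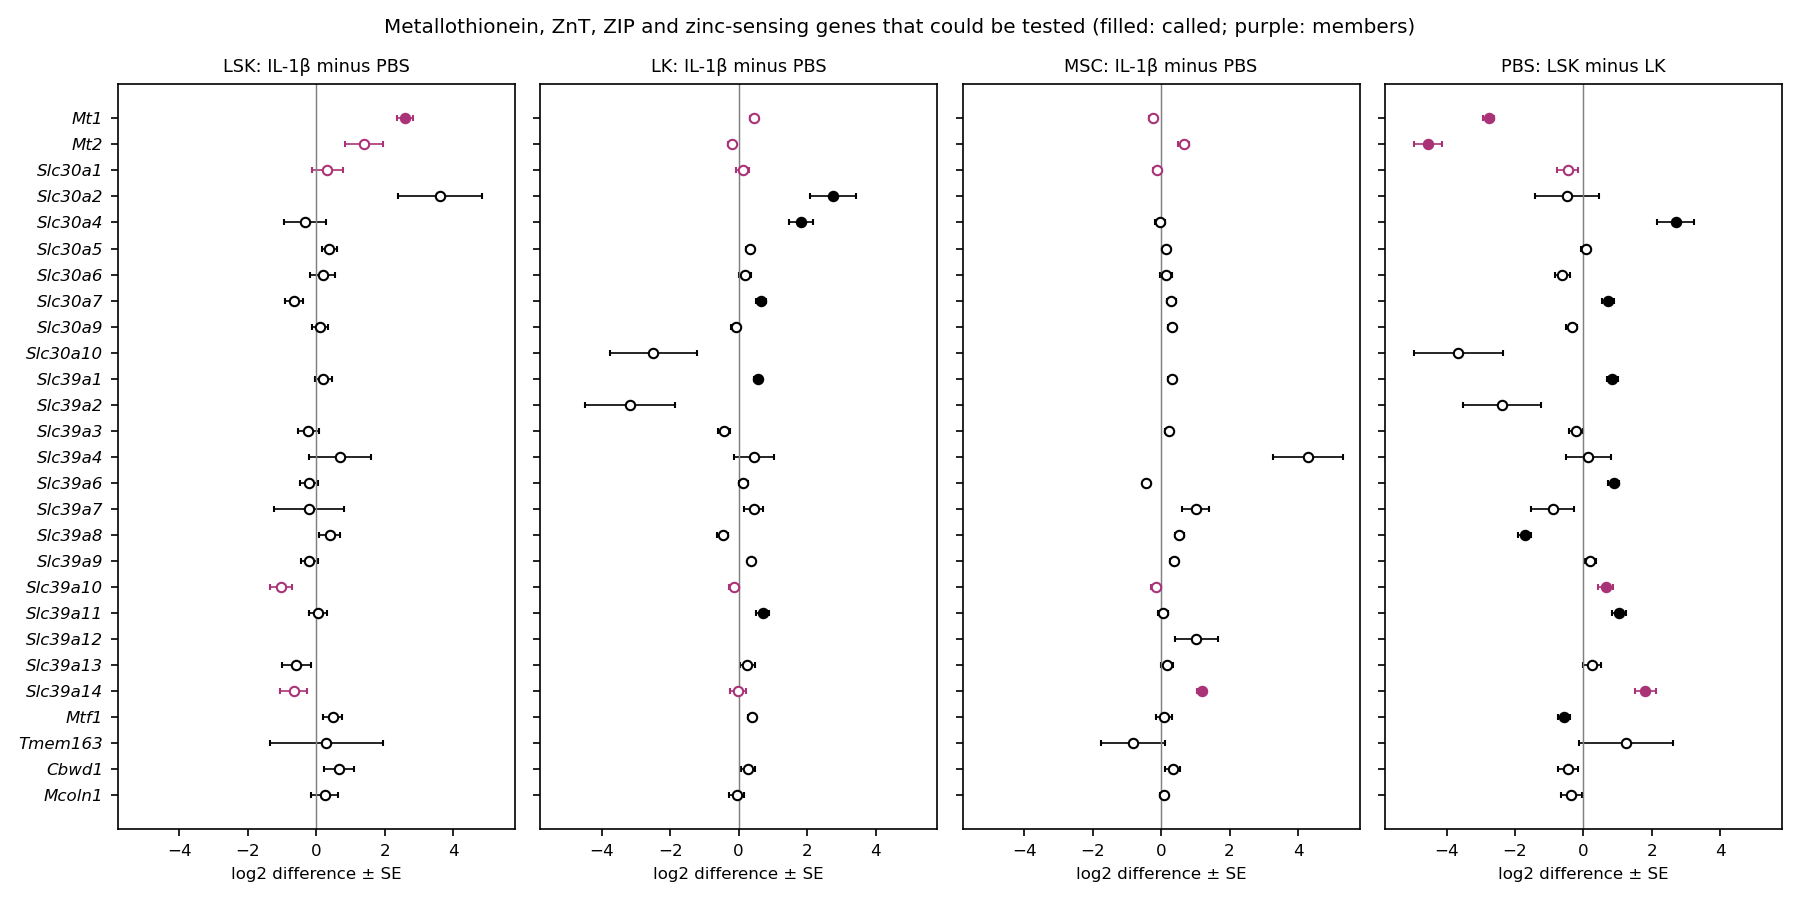
Log2 differences with standard errors of the genes of the metallothionein, ZnT, ZIP and zinc-sensing lists that could be tested, for IL-1β minus PBS in LSK, LK and MSC libraries and for LSK minus LK cells with PBS. Members are purple, filled points were called and open points were not. In LK cells 5 of 20 genes that are no members were called higher with IL-1β. Over all genes tested there, 9.34% were called in either direction.

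Lists of genes known to be induced by glucocorticoids or through STAT3, both known inducers of metallothionein genes, were read beside the members. Of 7 glucocorticoid-induced genes, 0 were called in LSK cells with IL-1β by edgeR (4 had an unadjusted p under 0.05, DESeq2 called 1, and the median log2 difference was 0.27), 4 of 7 were called higher in LK cells (0.66) and 1 of 6 tested in MSC (0.01). The called genes with the largest differences in LK cells were Sgk1 (1.98, SE 0.43), Fkbp5 (1.06, SE 0.16) and Zbtb16 (1.06, SE 0.25). Of 10 STAT3-induced genes 9 could be tested in each population. In LSK cells 1 was called higher by edgeR, Lrg1 (6.40, SE 0.79), with a median of 0.06. There 4 had an unadjusted p under 0.05 in edgeR and DESeq2 called 4, in either direction. In LK cells 5 were called higher (median 1.13) and in MSC 6 (median 0.75), among them Socs3, the feedback inhibitor of cytokine receptors (3.04, SE 0.12). Over all genes tested, 0.632% were called in LSK cells, 9.34% in LK cells and 11.4% in MSC, in either direction. The part of both lists in the levels of Mt1 and Mt2 was not tested. The spread between libraries of a group was widest in LSK cells (biological coefficient of variation 0.377 in LSK, 0.183 in LK and 0.149 in MSC).

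Over the 10 LSK and LK libraries, the genes whose log2 CPM followed each member most closely were sought among 11026 genes. Mt1 was most like Sumf2 (Pearson r 0.984), Grb10 (0.981) and Etf1 (0.981). Mt2 was most like Erfe (0.991), Slc41a3 (0.989) and Noc4l (0.987). Slc30a1 was most like Gtpbp3 (0.954), 2500002B13Rik (0.953) and Erg28 (0.949), Slc39a10 most like Prkd3 (0.973), Slc29a3 (0.971) and Srcap (0.970), and Slc39a14 most like Agap2 (0.977), Gabpb1 (0.976) and Calcoco1 (0.975). Among the members, Mt1 and Mt2 had an r of 0.834, Mt2 and Slc39a14 -0.977 and Mt1 and Slc39a10 -0.765. These 10 points fall into LSK and LK libraries, share their depth and treatment groups, and are given as a description only.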

How the data were processed

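RNA-seq of 14 libraries was analysed. RNA was depleted of rRNA and libraries were made with the NEBNext Ultra II kit. The deposited values are raw counts of read pairs per gene, which the authors made with fastp 0.20.0, HISAT2 2.0.1, SAMtools 1.10 and featureCounts 2.0.2 (reverse-stranded, read pairs, Ensembl release 100, GRCm38), per the file headers and the submitters' processing notes. The methods text also names GenomicAlignments. By default featureCounts leaves out pairs that map to several places. Symbols were matched for 55141 of 55487 gene identifiers. A further IL-1β-treated MSC library named in a header was not analysed here.

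The test was edgeR's quasi-likelihood test (version 4.0.16, R 4.3.3; filterByExpr, TMM, robust glmQLFit and glmQLFTest), with p-values adjusted by the Benjamini-Hochberg method over all genes tested. IL-1β and PBS were compared within each population. LSK against LK and the interaction came from 1 fit of 10 libraries. A called gene had an adjusted p under 0.05 and a log2 difference above 0.5 in size. The standard error is the log2 difference divided by the square root of F. CPM used TMM library sizes, jointly for LSK and LK libraries, and log2 CPM used a prior count of 2. Likeness was taken over genes with a mean of at least 1 log2 CPM. Deviations from group means of same-numbered LSK and LK libraries of a treatment had correlations of 0.1002 (both IL-1β pairs) to 0.4715, just above the limit of 0.1 at the lowest, so the numbers were taken to pair them, from the data and not from a label. Differently numbered libraries had -0.3812 to 0.162, the highest above PBS pair 2 (0.1279). The IL-1β pairs are equal by construction, since deviations within a group of 2 libraries mirror each other. The pairing is therefore weakly based, and the fits behind the values given had no block, which was tried as an alternative. Promoter windows are RefSeq's, and 4 of 5 members had one. Wilson intervals (95%) were made with scipy 1.17.1 and figures with matplotlib 3.10.9. The tests were checked on simulated counts.

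The members, the lists and the alternatives were chosen with earlier results of these data known. The text names the 5 members, each gene of the zinc lists that was called, the 3 genes most like each member, and at most 3 called genes of any other list. Slc30a7 in LSK cells, Slc39a4 and Slc39a6 in MSC and Slc39a3 are described beyond that rule, chosen after their values were seen. Alternatives were DESeq2 1.42.0, other scaling factors, other filters on low counts, the replicate block, a joint fit and each replicate left out in turn.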

Additional observations from a re-analysis of the deposited data

Results flagged for a closer look

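The response of Mt1 to IL-1β differed between LSK and LK cells by 2.122 on the log2 scale in edgeR's interaction fit, the largest difference among the members, with levels higher with IL-1β in both populations. The IL-1β values were known when Mt1 was chosen, and of the 3 populations it was called in LSK cells only. Mt1 was lower with IL-1β in every MSC library than in each PBS one while it was higher in every IL-1β library of LSK and LK cells. The MSC response was subtracted from each, giving 2.845 for LSK and 0.687 for LK cells, and these differences were not tested because MSC were fitted apart.

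Among the other zinc genes, 3 had values of opposite sign in MSC and in sorted cells without overlap of the treatments. None was called in the populations named here, and these differences were not tested either. Slc30a7 was lower with IL-1β in LSK cells and higher in MSC, a difference of -0.94. Slc39a3 was lower in LSK and LK cells and higher in MSC, by -0.473 and -0.659. Slc39a8 was lower in LK cells and higher in MSC, by -0.998. Treatments did not overlap for 39.5% of all genes in LSK cells, 45.8% in LK cells and 61.2% in MSC.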

How the results depend on the processing

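For LSK cells with IL-1β the count was 83, and it was 905 by DESeq2, 869 with no filter on low counts, 702 with the replicate number as a block, 1228 in a joint fit with LK libraries, and 3 to 480 with a library left out, the lowest without IL-1β replicate 2 and the highest without PBS replicate 2. For LK cells it was 1199, and 1844 with no filter, 2331 with the replicate block, 489 in the joint fit, and 66 (without IL-1β replicate 1) to 2409 (without PBS replicate 3) with a library left out. For MSC it was 1515, and 2354 with no filter and 38 (without IL-1β replicate 1) to 3819 (without PBS replicate 2) with a library left out. For LSK against LK cells it was 4394, and 2741 to 4607 with a library left out, the lowest without LK PBS replicate 1. For the interaction it was 4, and 332 by DESeq2, 398 with no filter, 24 with the replicate block, and 0 to 336 with a library left out, the highest without LSK PBS replicate 2. The cause was not tested. PBS and IL-1β libraries of the same number share only that number, since their deviations correlated at -0.10 to 0.13, and the block of LSK with LK libraries changed no member's call.

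Some members near 0 changed sign. With a library left out, Slc30a1 lay between -0.016 (without IL-1β replicate 2) and 0.624 in LSK cells, between -0.249 and 0.017 (without PBS replicate 2) in MSC, and between -0.202 and 0.522 in the interaction, where it was -0.202 without LSK IL-1β replicate 2 and -0.073 without LSK PBS replicate 2. In LK cells Slc39a14 lay between -0.307 (without IL-1β replicate 1) and 0.225 (without IL-1β replicate 2), at 0.008 without PBS replicate 2 and at 0.001 by DESeq2, and Slc39a10 lay between -0.285 and 0.001 (without IL-1β replicate 1). Mt1 lay between 2.55 and 2.68 in LSK cells over its 12 alternatives, and between -2.88 and -2.68 in LSK against LK cells over 16. Mt1 in LK cells was called without PBS replicate 1 (0.55), and the Mt2 difference between responses with no filter (1.63). With a library left out, Mt2 lay between 0.548 (without IL-1β replicate 2) and 1.955 (without IL-1β replicate 1) in LSK cells and between 0.671 and 2.152 in the interaction, and Slc39a10 between -1.596 (without IL-1β replicate 1) and -0.635 (without IL-1β replicate 2) in LSK cells and between -1.452 and -0.567 in the interaction. Slc39a14 lay between -1.151 (without IL-1β replicate 1) and -0.279 (without PBS replicate 2) in LSK cells and between -1.121 and -0.339 in the interaction, where it was -0.36 without LK IL-1β replicate 1. In LSK cells the standard error of Slc30a1 (0.45) exceeded its difference (0.33).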
